A study of Homo sapiens with 12 samples.

Results

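The 75 genes described here encode proteins of the mitochondrial ribosome. They were taken from an array study of HK-2 cells, a line of human renal proximal tubular epithelial cells immortalised with papillomavirus genes. The study measured gene expression after a low dose of the compound labelled Kbr, beside cells that received its vehicle, as part of a wider search for expression signatures of kidney toxicity. The sources used here give neither the concentration of Kbr nor its full chemical name. There were 4 groups of 3 biological replicates, 12 arrays in all: control cells at 24 h, Kbr cells at 24 h, control cells at 48 h and Kbr cells at 48 h. All 4 groups were the same line in the same medium, with EGF, hydrocortisone, insulin, transferrin and selenite added, so the replicates share 1 line and are not donors. A gene was a member where a probe set carried 1 symbol only and that symbol began with MRPL or MRPS followed by a digit. A pseudogene and an antisense RNA, 2 symbols in all, were left out. Genes with several probe sets were represented by the brightest one, judged by its mean across the 12 arrays. This gave 48 genes named for the large subunit (MRPL) and 27 named for the small subunit (MRPS), of 19775 named genes on the array, on 21 chromosomes.

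Mitochondria carry their own ribosomes, which translate the few proteins encoded by mitochondrial DNA, all of them parts of the respiratory chain and ATP synthase. The ribosomal RNAs come from mitochondrial DNA, while every protein of the particle is made from a nuclear gene, translated in the cytosol and imported. The particle is rich in protein compared with its bacterial relatives, and many of its proteins have no bacterial counterpart. Proximal tubule cells depend on mitochondrial respiration for solute transport and are a common site of drug toxicity.

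All values below are the authors' deposited log2 expression values, so a difference of 1 is a doubling. A change is the difference of 2 group means, written as Kbr minus control of the same time unless time is named. "Rose" and "fell" are used for adjusted p under 0.05 in limma, fitted to all 12 arrays, with the Benjamini-Hochberg adjustment made across 10665 genes, those with a value above 4 in at least 3 arrays. All 75 members passed that filter. Their lowest single value was 7.41 and their group means lay between 7.70 and 13.80, far from the floor of the array, whose per-array medians lay between 2.91 and 2.99. Arrays of a group correlated at Pearson r of 0.98 to 0.99 over the 10665 genes tested. The markers of the labelled cell type were only in part present. Among the measured renal epithelial markers PAX8, KRT8, KRT18, KRT19, CDH1 and EPCAM were above the filter and PAX2 was not, and among 10 proximal tubule markers only SLC3A1 and KHK were. None of the named markers of endothelium, leukocytes or other nephron segments passed it. SLC3A1, KHK, KRT19, CDH1 and EPCAM fell at 48 h, of them SLC3A1, KRT19 and CDH1 also at 24 h. Of the 6 renal epithelial markers above the filter, 3 fell and 0 rose at 48 h. The other 3, PAX8, KRT8 and KRT18, passed the test in neither direction. Of the 6, 2 had a positive change at 48 h (largest 0.40) and 1 at 24 h (0.53). The mean log2 value of the proximal tubule markers was 3.62 to 3.75 in control and 3.53 to 3.54 in Kbr arrays at 24 h, and 3.74 to 3.82 and 3.49 to 3.55 at 48 h. That of the renal epithelial markers was 10.08 to 10.32 and 9.52 to 9.99 at 24 h, and 9.93 to 10.37 and 9.51 to 9.85 at 48 h. The mean log2 value of the 6 fibroblast markers was 6.54 to 6.76 in control and 6.12 to 6.39 in Kbr arrays at 24 h, and 6.39 to 6.47 and 5.46 to 5.59 at 48 h. COL1A1, DCN and LUM fell at 48 h, and COL1A2, COL3A1 and PDGFRB were below the filter. The part of these markers in the results below was not tested, and in such samples fewer cells of a type and less RNA per cell cannot be told apart.

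Mitoribosomal protein genes lay higher in Kbr than in control cells at both times, by small amounts. Each gene was expressed as its deviation from its own mean over the 12 arrays, and the deviations were averaged over the 75 members in each array. This average was -0.03, -0.03 and 0.09 in the control arrays at 24 h (replicates 1, 2 and 3) and 0.11, 0.12 and 0.20 in the Kbr arrays at 24 h. At 48 h it was -0.24, -0.23 and -0.08 in control arrays and -0.02, -0.03 and 0.13 in Kbr arrays. At neither time did the 2 groups overlap, and replicate 3 was the highest array of every group. Taken between arrays of the same replicate number, the Kbr array exceeded its control by 0.14, 0.15 and 0.12 at 24 h and by 0.22, 0.20 and 0.21 at 48 h. Over all genes tested the same difference was negative in every pair at 24 h, between -0.03 and -0.05.

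**Figure D1:**
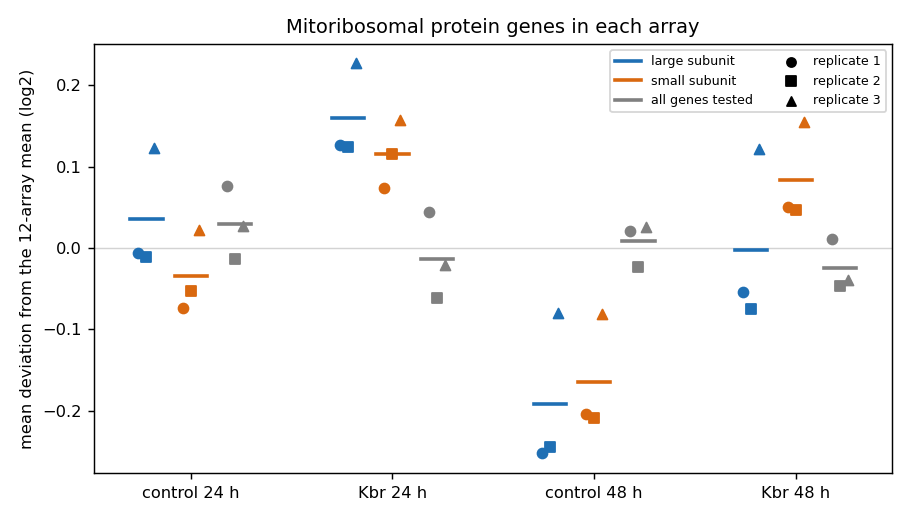
Mean deviation from the 12-array mean (log2, vertical axis) of large subunit genes, small subunit genes and all genes tested, for each of the 12 arrays by group (horizontal axis). Symbols are replicates, bars are group means. Control arrays at 48 h lie lowest for both subunits, at -0.19 on average for the large and -0.16 for the small subunit.

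At 48 h, 27 of the 75 members rose and 5 fell. Of all genes tested 22% rose and 20.8% fell, against 36% and 6.67% of the members. The median change was 0.16 over the members and -0.004 over all genes, and 55 of 75 members had a positive change, against 49.7% of all genes. Sizes were modest: the risers changed by 1.20- to 1.86-fold, 8 of them by at least 1.5-fold, and 0 members changed 2-fold by the probe set that stood for the gene, although 2 other probe sets of MRPS12 did. In 25 of the 27 risers all 3 Kbr arrays lay above all 3 control arrays, MRPL44 and MRPS17 being the exceptions. The risers were chosen by a test on these same arrays, so their separation is not further support. Over all members 31 were separated upward in this way (26% of all genes tested) and 5 downward (24.9% of all genes). With replicate number as a block, which the arrays bear out, 37 members rose and 8 fell, against 28.7% and 28.8% of all genes.

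**Figure D2:**
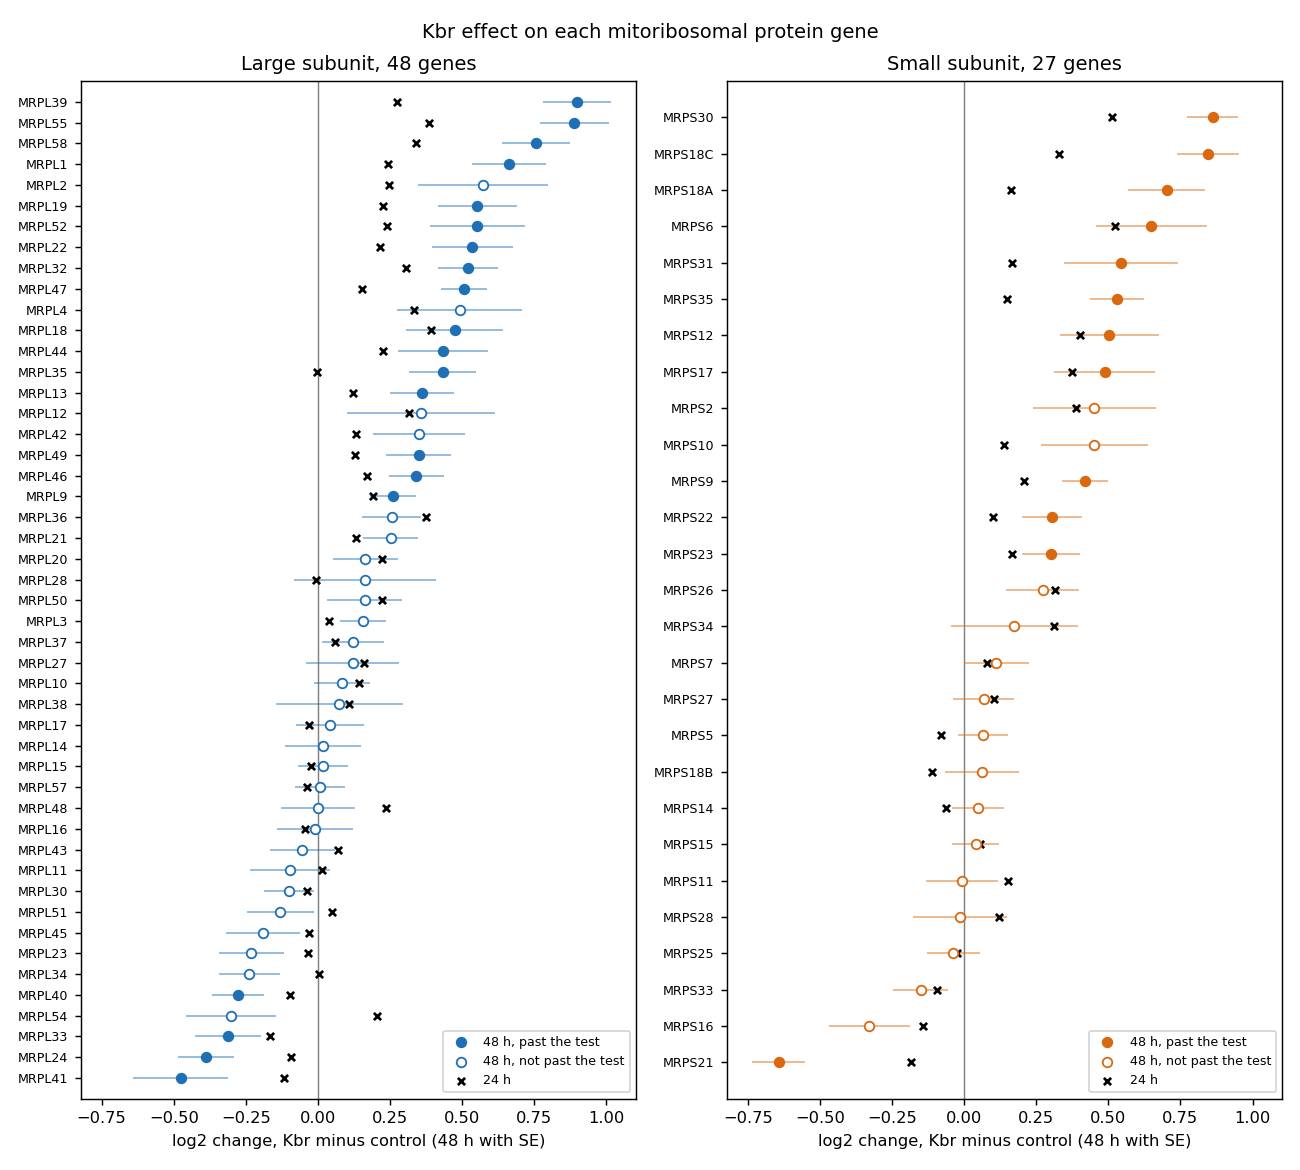
Change of each of the 75 members, Kbr minus control (log2, horizontal axis), ordered by the 48 h change within the large and small subunit. Circles are 48 h with the standard error of the limma fit, filled where the adjusted p was under 0.05; crosses are 24 h. Most members lie to the right of 0, and MRPS21 lies farthest to the left, at -0.64.

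The largest rise was that of MRPL39, a large subunit protein without a bacterial counterpart. Its values at 48 h were 9.98, 9.91 and 10.16 in control and 10.86, 10.84 and 11.04 in Kbr arrays. The groups were far apart, by 0.90 (SE 0.12, 1.86-fold, limma adjusted p = 0.000273). MRPL55, also of the large subunit, had 7.95, 7.78 and 8.16 in control and 8.88, 8.84 and 8.83 in Kbr arrays, again with no overlap (0.89, SE 0.12, limma adjusted p = 0.000321). MRPL58, which also goes by ICT1, is a peptidyl-tRNA hydrolase related to release factors that became a fixed part of the large subunit. It measured 9.38, 9.51 and 9.83 in control and 10.33, 10.27 and 10.39 in Kbr arrays, a change of 0.76 (SE 0.12, limma adjusted p = 0.000666). MRPL1, the counterpart of the bacterial protein of the mobile stalk beside the exit site for tRNA, measured 8.98, 9.25 and 9.41 in control and 9.90, 9.88 and 9.85 in Kbr arrays. The Kbr arrays were tightly grouped and lay above every control array (0.66, SE 0.13, limma adjusted p = 0.00217).

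Among genes named for the small subunit the largest rises were in MRPS30, MRPS18C, MRPS18A and MRPS6. Structures of the particle place the products of MRPS30 and MRPS18A in the large subunit in spite of their names. MRPS30 had 9.93, 10.08 and 10.18 in control and 10.96, 10.91 and 10.90 in Kbr arrays at 48 h (0.86, SE 0.09, 1.82-fold, limma adjusted p = 8.56e-05). Its groups were widely separated, but 2 other probe sets of MRPS30 that passed the filter did not move with it. They changed by -0.29 (limma adjusted p = 0.260) and 0.04 (limma adjusted p = 0.786) at 48 h when every probe set was tested on its own, so the size for this gene depends on the probe set.

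MRPS18C, MRPS18A and MRPS18B are 3 paralogues descended from 1 bacterial protein, of which only the product of MRPS18C sits at the ancestral place. MRPS18C rose from 10.37, 10.67 and 10.68 in control to 11.42, 11.39 and 11.46 in Kbr arrays at 48 h (0.85, SE 0.11, limma adjusted p = 0.000246). MRPS18A measured 8.58, 8.28 and 8.54 in control and 9.43, 8.98 and 9.10 in Kbr arrays (0.70, SE 0.13, limma adjusted p = 0.00193), and its other probe set changed by 0.54 (limma adjusted p = 0.0190). MRPS18B had 12.18, 12.03 and 12.17 in control and 12.42, 12.15 and 12.01 in Kbr arrays. Its groups overlapped and its change was 0.06 (SE 0.13, limma adjusted p = 0.724). MRPS6, a protein of the small subunit platform, measured 11.62, 11.75 and 11.82 in control and 12.09, 12.27 and 12.78 in Kbr arrays (0.65, SE 0.19, limma adjusted p = 0.0194). Its call rested on single arrays: without control replicate 1 or Kbr replicate 3 at 48 h it was lost (highest adjusted p = 0.0641).

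The other 19 risers changed by 0.26 to 0.55. They included MRPL19, MRPL22, MRPL32, MRPL47 and MRPL35 of the large subunit and MRPS35 and MRPS9 of the small subunit, which, with MRPL39, MRPL55, MRPL58, MRPL1, MRPS30, MRPS18C and MRPS18A, made up the 14 risers that stayed past the test whichever of the 12 arrays was left out. The other probe sets of MRPL19 above the filter did not move with it. Tested on their own, they changed by -0.04 (limma adjusted p = 0.926) and -0.003 (limma adjusted p = 0.984) at 48 h. MRPL22, whose product lines the tunnel through which new proteins leave, measured 10.36, 10.81 and 10.69 in control and 10.98, 11.28 and 11.20 in Kbr arrays at 48 h. MRPL47 had 12.18, 12.25 and 12.33 in control and 12.72, 12.74 and 12.81 in Kbr arrays. Both genes had no overlap between groups, and the changes were 0.54 (SE 0.14, limma adjusted p = 0.0105) and 0.51 (SE 0.08, limma adjusted p = 0.000666). MRPS12, the counterpart of the bacterial protein at the decoding centre, rose by 0.50 (SE 0.17, limma adjusted p = 0.0345), a call lost on leaving out any of 5 arrays. Its other probe sets differed from this value. When every probe set was tested on its own, 1 with a mean of 7.87 over the 12 arrays rose by 1.67 at 48 h (limma adjusted p = 0.00442). Another, with a mean of 4.20, near the floor, rose by 2.17 (limma adjusted p = 0.000481) and by 1.58 at 24 h (limma adjusted p = 0.0229). The remaining one, with a mean of 3.98, also near the floor, changed by 0.004 at 48 h (limma adjusted p = 0.986). The size for MRPS12 therefore depends on the probe set.

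Leaving out 1 array at a time, 16 of the 32 calls at 48 h were kept in all 12 fits. The number of risers lay between 17 and 27, and it was 17 without control replicate 1 at 48 h and also without Kbr replicate 3 at 48 h. The number that fell lay between 2 and 8: it was 2 without any of the 3 control arrays at 48 h or without Kbr replicate 1 or 2 at 48 h, and 8 without Kbr replicate 3 at 48 h.

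**Figure D3:**
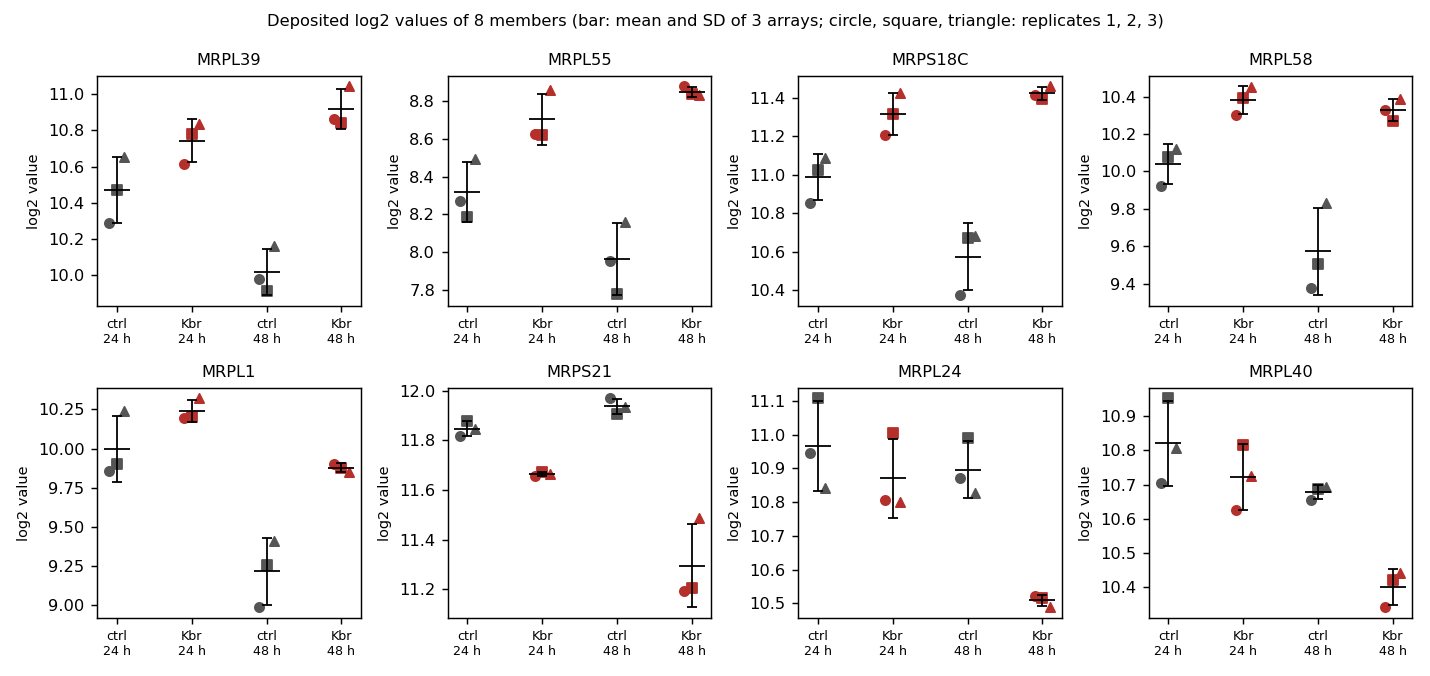
Deposited log2 values (vertical axis, own range per panel) of 8 members in the 4 groups. Grey symbols are control and red symbols Kbr arrays; bars are the mean and SD of 3 arrays. In MRPL39, MRPL55, MRPS18C, MRPL58 and MRPL1 control arrays at 48 h lie lowest, and in MRPS21, MRPL24 and MRPL40 Kbr arrays at 48 h lie lowest.

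The fall of MRPS21 was the largest among the members. This small subunit protein has a short bacterial counterpart that sits near the site where messenger RNA binds. Its values were 11.97, 11.91 and 11.94 in control and 11.19, 11.20 and 11.49 in Kbr arrays at 48 h, and 11.82, 11.88 and 11.85 against 11.66, 11.67 and 11.67 at 24 h. The groups were apart at both times, and the 48 h change was -0.64 (SE 0.09, 1.56-fold lower, limma adjusted p = 0.000408). The 24 h change of -0.18 did not pass the test (limma adjusted p = 0.251).

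The other 4 members that fell at 48 h are all of the large subunit. MRPL24, counterpart of a bacterial protein that starts large subunit assembly, had 10.87, 10.99 and 10.83 in control and 10.52, 10.52 and 10.49 in Kbr arrays (-0.39, SE 0.10, limma adjusted p = 0.00861). MRPL40 had 10.66, 10.69 and 10.69 in control and 10.34, 10.42 and 10.44 in Kbr arrays (-0.28, SE 0.09, limma adjusted p = 0.0285). MRPL33 measured 11.02, 11.04 and 11.14 in control and 10.62, 10.68 and 10.96 in Kbr arrays (-0.31, SE 0.11, limma adjusted p = 0.0472). All 3 were separated between groups. MRPL41 was not, with 10.83, 10.80 and 11.08 in control and 10.21, 10.23 and 10.85 in Kbr arrays (-0.48, SE 0.16, limma adjusted p = 0.0368). Of these falls only those of MRPS21 and MRPL24 were kept in all 12 fits with an array left out. MRPL40 and MRPL41 were each lost in 5 fits, in both cases without any 48 h array other than Kbr replicate 3, and MRPL33 in 9 fits. All 5 genes that fell had a negative change at 24 h as well, a share that was not counted among all genes that fell.

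The promoters of the members were also compared. RefSeq promoter windows of GRCh38.p14, which run from 250 bases before to 50 bases after the annotated start, were at hand for 67 of the 75 members and for 15843 protein-coding genes. They were searched on both strands for letters of factors tied to nuclear genes of mitochondria: CCGGAAG for ETS factors such as GABP, AAGATGGC for YY1 and GCATGCGC for NRF1. The 250 bases before the start are printed for 5 genes that rose and 2 that fell, to show windows with several matches, with 1 match and with none. Capitals mark a match on either strand. MRPL52 lies at chr14:22829637-22829886 (plus strand), MRPL22 at chr5:154940823-154941072 (plus), MRPL58 at chr17:75012420-75012669 (plus), MRPS18A at chr6:43687792-43688041 (minus), MRPL55 at chr1:228109300-228109549 (minus), MRPS21 at chr1:150293611-150293860 (plus) and MRPL40 at chr22:19432295-19432544 (plus). Each sequence ends at the base before the annotated start; in MRPL52 the last capitals begin an ETS match that runs across it.
MRPL52: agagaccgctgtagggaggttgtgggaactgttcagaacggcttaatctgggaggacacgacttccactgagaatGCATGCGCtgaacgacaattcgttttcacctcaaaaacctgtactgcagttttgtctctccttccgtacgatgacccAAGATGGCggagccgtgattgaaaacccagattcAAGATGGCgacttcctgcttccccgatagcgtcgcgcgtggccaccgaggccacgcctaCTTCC
MRPL22: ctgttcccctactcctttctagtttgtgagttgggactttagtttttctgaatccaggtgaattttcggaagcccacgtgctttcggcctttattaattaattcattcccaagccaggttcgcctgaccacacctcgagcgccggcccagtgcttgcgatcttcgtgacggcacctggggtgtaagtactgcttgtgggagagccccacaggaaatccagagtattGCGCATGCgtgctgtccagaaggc
MRPL58: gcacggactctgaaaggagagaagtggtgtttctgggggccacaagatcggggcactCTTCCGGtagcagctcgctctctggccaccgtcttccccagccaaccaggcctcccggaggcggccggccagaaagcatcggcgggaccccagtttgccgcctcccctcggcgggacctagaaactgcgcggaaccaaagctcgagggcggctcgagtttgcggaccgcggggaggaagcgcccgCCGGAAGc
MRPS18A: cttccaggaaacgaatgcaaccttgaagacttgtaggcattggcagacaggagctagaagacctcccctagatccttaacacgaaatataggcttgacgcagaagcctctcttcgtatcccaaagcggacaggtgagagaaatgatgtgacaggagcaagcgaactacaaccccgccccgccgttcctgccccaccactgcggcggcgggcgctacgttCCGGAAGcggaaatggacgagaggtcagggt
MRPL55: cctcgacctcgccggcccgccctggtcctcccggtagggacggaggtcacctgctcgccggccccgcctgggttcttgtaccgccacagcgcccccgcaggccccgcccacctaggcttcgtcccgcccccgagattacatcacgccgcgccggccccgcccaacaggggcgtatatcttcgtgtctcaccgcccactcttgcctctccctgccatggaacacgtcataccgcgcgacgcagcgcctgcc
MRPS21: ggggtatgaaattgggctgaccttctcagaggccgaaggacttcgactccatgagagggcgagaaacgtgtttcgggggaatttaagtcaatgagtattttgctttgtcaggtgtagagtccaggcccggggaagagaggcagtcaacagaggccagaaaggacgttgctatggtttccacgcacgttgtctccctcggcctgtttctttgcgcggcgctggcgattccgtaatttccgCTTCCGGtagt
MRPL40: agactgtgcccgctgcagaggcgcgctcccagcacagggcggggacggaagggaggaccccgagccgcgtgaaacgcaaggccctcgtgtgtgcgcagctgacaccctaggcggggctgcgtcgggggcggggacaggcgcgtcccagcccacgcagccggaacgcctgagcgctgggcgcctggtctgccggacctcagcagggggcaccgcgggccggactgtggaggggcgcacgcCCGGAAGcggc

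MRPL52, which rose at 48 h, holds letters of all 3 factors, MRPL58 holds a pair of ETS matches, and MRPL55, the second largest riser, holds none. MRPS21 and MRPL40, which fell, each hold an ETS match just before the start. Over the whole 300-base windows the ETS letters were present in 28 of 67 member promoters (41.8%), against 14.2% of all promoters. The YY1 letters were present in 19 (28.4%) against 3.91%, and the NRF1 letters in 6 (8.96%) against 4.26%. Either ETS or YY1 letters were in 39 promoters (58.2%), against 17.2% of all, both were in 8, and in 0 promoters did the 2 motifs overlap. Of the 20 YY1 matches 14 began at or after the start, all of them in the direction of the gene. For other motifs the shares were closer to those of all promoters: GGGCGG of SP and KLF factors in 59.7% against 58.5%, CCAAT of NFY in 29.9% against 36.4%, and CACGTG, the E-box, in 8.96% against 8.88%. The cAMP response element TGACGTCA was in 0 of 67 (2.59% of all promoters), TGATGNAA, the core bound by CHOP and ATF4 dimers, in 1 (2.53% of all), and TGACNNNGC, the core of the antioxidant response element, in 11.9% against 14.3%.

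The same letters were then counted by the response of the gene at 48 h. ETS letters were in 9 of the 25 promoters of members that rose at 48 h (36%), in 3 of the 5 of members that fell, and in 16 of 37 of the rest (43.2%). YY1 letters were in 8 of 25 (32%), 0 of 5 and 11 of 37 (29.7%). NRF1 letters were in 4 of 25, 0 of 5 and 2 of 37. These counts describe the windows and were not tested.

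At an unadjusted p under 0.05, 13 of 75 members were higher in Kbr cells at 24 h and 0 lower. Of the 10665 genes tested 1169 were higher and 1363 lower at that level (23.7% in either direction). At 24 h, 1 member rose and 0 fell by limma, where 2.48% of all genes tested rose and 3.25% fell. The riser was MRPS30, with 10.16, 10.11 and 10.28 in control and 10.72, 10.66 and 10.70 in Kbr arrays. Its groups were apart and the change was 0.51 (SE 0.09, 1.43-fold, limma adjusted p = 0.0122). The call was lost without control replicate 1 at 24 h (adjusted p = 0.0628) and with the mean of all its probe sets (change 0.28, adjusted p = 0.113). Without control replicate 3 at 24 h or Kbr replicate 3 at 48 h, 2 members rose at 24 h. The median change of the members was 0.14, against -0.02 over all genes, and 55 of 75 were positive against 47.4% of all genes. In 46 members (61.3%) the Kbr array lay above the control of the same number in all 3 pairs, which held for 31.2% of all genes. At 48 h this held for 45 members (60%), against 36.5% of all genes.

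With the replicate block more members passed the test at 24 h. With it 16 members rose and 0 fell (0 falls also at an unadjusted p under 0.05 without the block), against 10.4% and 14% of all genes. The 16 were MRPL4, MRPL12, MRPL18, MRPL22, MRPL32, MRPL36, MRPL39, MRPL55 and MRPL58 of the large subunit and MRPS2, MRPS9, MRPS12, MRPS17, MRPS18C, MRPS26 and MRPS30. MRPL12, the counterpart of the bacterial stalk protein that recruits translation factors, shows why the fits differ. Its 24 h values were 10.16, 9.55 and 10.35 in control and 10.55, 9.97 and 10.50 in Kbr arrays. The groups overlapped because replicate 2 was low in both, while every Kbr array lay above its numbered control.

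Changes at 24 and 48 h ran in parallel across the members, as they did across all genes. The 2 comparisons share no array. Across the 75 members the changes correlated at Pearson r = 0.78 and Spearman rho = 0.79, and across all genes tested at 0.83 and 0.81, as a description across genes that share arrays within each time. The sign was the same in 59 members (78.7%) and in 80.7% of all genes. Positive at both times were 47 of 75 members, against 38.9% of all genes. Of the 27 risers at 48 h, 26 had a positive change at 24 h, and the exception was MRPL35, at -0.004. The same share among all genes that rose at 48 h was not counted, so whether this is particular to the members cannot be said. The change was larger in size at 48 h in 54 of 75 members (72%) and in 77.2% of all genes.

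**Figure D4:**
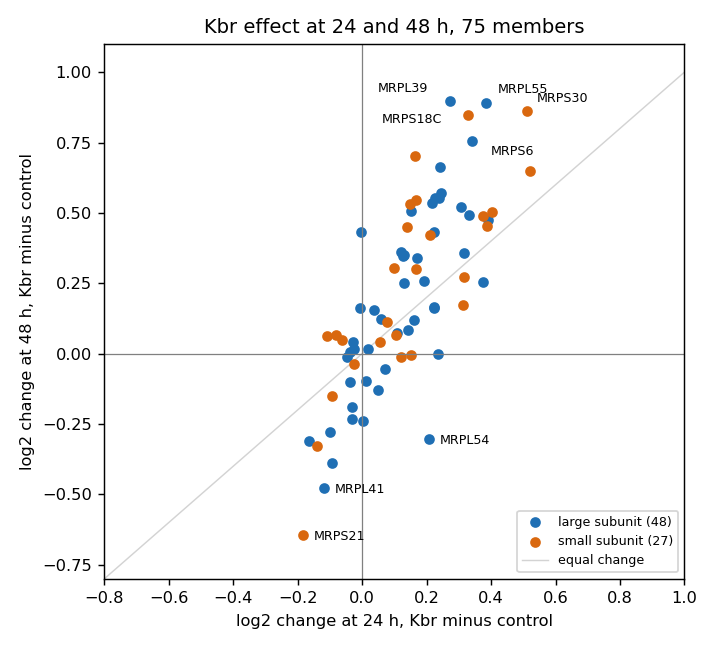
Change at 48 h (vertical axis, log2) against change at 24 h (horizontal axis, log2) for the 75 members, coloured by subunit. The grey diagonal marks equal changes. Members that rose at 48 h lie above the diagonal for the most part, which choosing them by their 48 h change favours. MRPL54 stands apart at 0.21 and -0.30.

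The difference between the 48 h and the 24 h effect passed the test for 0 members in limma, and for 0.0656% of all genes upward and 0.075% downward. At an unadjusted p under 0.05, 10 members were higher and 2 lower, against 977 and 738 of the 10665 genes tested (16.1% in all). The smallest adjusted p was 0.139, for MRPL39, whose effect grew by 0.63 (SE 0.17). With the replicate block 6 members had a higher effect at 48 h, namely MRPL35, MRPL39, MRPL47, MRPL55, MRPS18A and MRPS18C, and 1 a lower effect, MRPS21 (3.41% and 3.95% of all genes). MRPS21 went from -0.18 to -0.64, a difference of -0.46 (SE 0.13) with a limma adjusted p of 0.152 without and 0.0454 with the block. Without Kbr replicate 3 at 48 h, 2 members had a lower effect at 48 h without the block.

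Control cells themselves changed with time. From 24 to 48 h the median change of the members in control cells was -0.19, with group means of the array average of 0.01 and -0.18, while the median of all genes changed by -0.02. Only 10 of 75 members had a positive change, against 46.1% of all genes. In 57 members (76%) the 48 h control array was below the 24 h control array in all 3 numbered pairs, against 32.9% of all genes. At an unadjusted p under 0.05, 17 members were lower and 2 higher, against 1301 and 986 of the 10665 genes tested (21.4% in all). In limma 1 member passed the test downward and 0 upward, where 1.88% of all genes fell and 1.42% rose. That member was MRPL1, which had 9.85, 9.90 and 10.24 at 24 h and 8.98, 9.25 and 9.41 at 48 h (-0.78, limma adjusted p = 0.0169). It was no longer called without control replicate 3 at 24 h or control replicate 1 or 2 at 48 h, and 4 members fell without control replicate 3 at 48 h. With the replicate block 27 members fell and 1, MRPL45, rose (13.3% and 9.23% of all genes).

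In Kbr cells the median decline with time was smaller, and fewer members shared it. The median was -0.10, and 22 of 75 members had a positive change, against 48.3% of all genes. The difference between the 2 time courses equals that between the 48 h and 24 h effects, which passed the test for 0 members without the block. Without Kbr replicate 3 at 48 h the large subunit median was -0.25 in Kbr cells. In control cells it was -0.22 with all arrays. At an unadjusted p under 0.05, 17 members were lower and 5 higher, against 1513 and 1580 of the 10665 genes tested (29% in all). In limma 4 members fell and 0 rose, where 5.04% of all genes fell and 5.6% rose. They were MRPL54 (-0.72, limma adjusted p = 0.0183), MRPS21, MRPL24 and MRPL40. The call count moved with single arrays, from 0 without Kbr replicate 1 or 3 at 24 h or Kbr replicate 1 or 2 at 48 h to 16 without Kbr replicate 3 at 48 h. It was 1 without Kbr replicate 2 at 24 h, and 2 without control replicate 1 at 24 h or control replicate 1 or 3 at 48 h. With the block 26 members fell and 5 rose, MRPL45, MRPS18A, MRPS23, MRPS30 and MRPS35 (16.4% and 14.2% of all genes). MRPL54, a mitochondria-specific protein of the large subunit, had 9.98, 9.90 and 10.25 in Kbr arrays at 24 h and 9.07, 9.19 and 9.70 at 48 h. In control arrays it had 9.78, 9.81 and 9.93 and then 9.55, 9.60 and 9.72. The groups overlapped at both times, yet each Kbr array lay above its numbered control at 24 h and below it at 48 h. The changes of 0.21 and -0.30 did not pass the test (limma adjusted p = 0.463 and 0.144), and with the replicate block the 48 h change did (limma adjusted p = 0.0293).

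The 2 subunits were set side by side by their medians and counts. At 24 h the median change was 0.13 over large and 0.15 over small subunit genes, and at 48 h it was 0.16 and 0.27. At 48 h 16 of 48 large subunit genes rose and 4 fell, against 11 of 27 and 1 of 27 for the small subunit. Of all genes tested 22% rose and 20.8% fell. With MRPS30 and MRPS18A counted where their products sit, the 48 h medians were 0.16 over 50 and 0.17 over 25 genes, with 18 and 9 risers. The gap between the medians was smaller with those 2 genes moved. Whether moving other genes would narrow it as much was not tested. The members were also split by descent. Of 47 members with a bacterial counterpart 16 rose and 3 fell (median 0.16), and of 28 without one 11 rose and 2 fell (median 0.17). The decline with time in control cells was seen in more large than small subunit genes: 42 of 48 (87.5%) against 15 of 27 (55.6%) were lower at 48 h in all 3 numbered pairs. The average of the large subunit minus that of the small subunit was 0.07 ± 0.03 in control and 0.04 ± 0.03 in Kbr arrays at 24 h, and -0.03 ± 0.03 and -0.09 ± 0.05 at 48 h (SD, n = 3). No test was made of these differences between subunits.

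The members with the highest mean values over the 12 arrays were MRPL3, MRPS15, MRPL47, MRPL20 and MRPL18, and those with the lowest were MRPL46, MRPL2, MRPL55, MRPL11 and MRPS34. Values of different probe sets do not rank genes by transcript number, so this order describes the array only. Risers were found at both ends, with MRPL47 and MRPL18 among the first and MRPL46 and MRPL55 among the second. MRPL3 and MRPS15 changed by 0.16 and 0.04 at 48 h, and neither passed the test (limma adjusted p = 0.140 and 0.723). With the replicate block MRPL3 passed it (limma adjusted p = 0.0452). MRPL2 had 7.97, 7.41 and 7.71 in control and 8.72, 8.04 and 8.05 in Kbr arrays at 48 h. The change of 0.57 (SE 0.22) missed the threshold, at a limma adjusted p of 0.0607, with replicate 1 above replicates 2 and 3 in both groups. With the replicate block MRPL2 passed the test (limma adjusted p = 0.000716). MRPL20, MRPL11 and MRPS34 changed by 0.16, -0.10 and 0.17, with limma adjusted p of 0.265, 0.602 and 0.552.

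More than 1 probe set was present for 37 members. Of the 44 further probe sets above the filter, from 26 members, 35 changed at 48 h in the same direction as the one that stood for the gene and 9 in the other, of which 0 passed the limma test fitted to 19521 probe sets. In all 12 other probe sets passed it at 48 h. For MRPL4, MRPL30, MRPS10 and MRPS15 another probe set passed where the one that stood for the gene did not, with changes of 0.98, -0.46, 0.46 and 0.95. At 24 h 3 other probe sets passed it, of MRPL4, MRPS11 and MRPS12. The other probe set of MRPL41 changed by -0.34 (limma adjusted p = 0.0870). A further 3 probe sets named a mitoribosomal gene together with another gene and were not counted as members; none of them passed the test at 48 h.

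Mitoribosomal proteins that carry other symbols behaved alike in part. PTCD3, a pentatricopeptide protein of the small subunit, rose at 48 h by 0.43 (SE 0.11, limma adjusted p = 0.00959), and DAP3, a GTP-binding protein of the same subunit, by 0.28 (SE 0.09, limma adjusted p = 0.0232). GADD45GIP1 changed by 0.30 (limma adjusted p = 0.140, and 0.00835 with the replicate block) and CHCHD1 by -0.15 (limma adjusted p = 0.527). AURKAIP1 has no probe set named for it alone in the annotation used here, nor do the proteins encoded by mitochondrial DNA, so the products of the mitoribosome were not followed.

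Genes that build or serve the mitoribosome were counted in the same fit, in which 22% of all genes rose and 20.8% fell at 48 h. Of 24 assembly and ribosomal RNA modification factors 10 rose and 1 fell at 48 h (median 0.27), or 41.7% and 4.17%. MTERF3, a factor needed for assembly of the large subunit, rose by 0.97 (SE 0.08, limma adjusted p = 3.79e-05), after 0.51 at 24 h (limma adjusted p = 0.00975). MTG2, a GTPase of large subunit assembly, rose by 1.05 (SE 0.17, limma adjusted p = 0.000693), while YBEY, an endonuclease for small subunit RNA, fell by 0.65 (SE 0.10, limma adjusted p = 0.000684). Of 14 translation factors 9 rose and 1 fell (median 0.33), or 64.3% and 7.14%. The release factor MTRF1L rose by 0.68 (limma adjusted p = 0.000281), the rescue factor MTRFR by 0.67 (limma adjusted p = 0.00573), and the initiation factor MTIF3 fell by 0.57 (limma adjusted p = 0.00863).

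Of 12 genes of mitochondrial transcription and its nuclear regulators 8 rose and 2 fell at 48 h (median 0.46). These are 66.7% and 16.7%, against 22% and 20.8% of all genes. TFB2M and TFAM, which start transcription of mitochondrial DNA, both rose by 0.88 (limma adjusted p = 8.3e-05 and 0.000467), and TFB2M had risen by 0.55 at 24 h (limma adjusted p = 0.00963). Among factors whose letters were searched for in the promoters, YY1 rose by 0.45 (limma adjusted p = 0.00186). GABPB1, a subunit of GABP, rose by 0.70 at 24 h (limma adjusted p = 0.00956). NRF1 rose by 0.81 at 48 h (limma adjusted p = 0.00241), and it is named here after its values were seen. The members of the list that fell were GABPA, the DNA-binding subunit of GABP, and the coactivator PPARGC1A, by 0.41 and 1.01.

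Of 13 mitochondrial chaperones and proteases 9 rose and 1 fell at 48 h (median 0.51), or 69.2% and 7.69%, against 22% and 20.8% of all genes. GRPEL2 rose by 0.95 (limma adjusted p = 0.000439), the matrix chaperone HSPA9 by 0.76 (limma adjusted p = 0.000447) and the unfoldase CLPX by 0.87 (limma adjusted p = 0.000553), while the protease HTRA2 fell by 0.48. Of 22 import genes 7 rose and 1 fell (median 0.21), or 31.8% and 4.55%, against the same shares of all genes. CHCHD4 rose by 0.76 (limma adjusted p = 0.000208), TIMM17A by 0.79 (limma adjusted p = 0.00061) and TIMM10 by 0.90 (limma adjusted p = 0.00164). PMPCB, a subunit of the presequence protease, fell by 0.36. With the replicate block 11 import genes rose at 48 h and 1 fell, where 28.7% and 28.8% of all genes did. At 24 h HSPA9 rose by 0.43 (limma adjusted p = 0.0482) and CHCHD4 by 0.42 (limma adjusted p = 0.0316). The block raised the 24 h rises from 1 to 7 among assembly factors, from 0 to 1 among translation factors, from 2 to 5 among transcription genes, from 1 to 6 among chaperones and proteases and from 1 to 9 among import genes. Over all genes tested it raised the share that rose at 24 h from 2.48% to 10.4%.

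**Figure D5:**
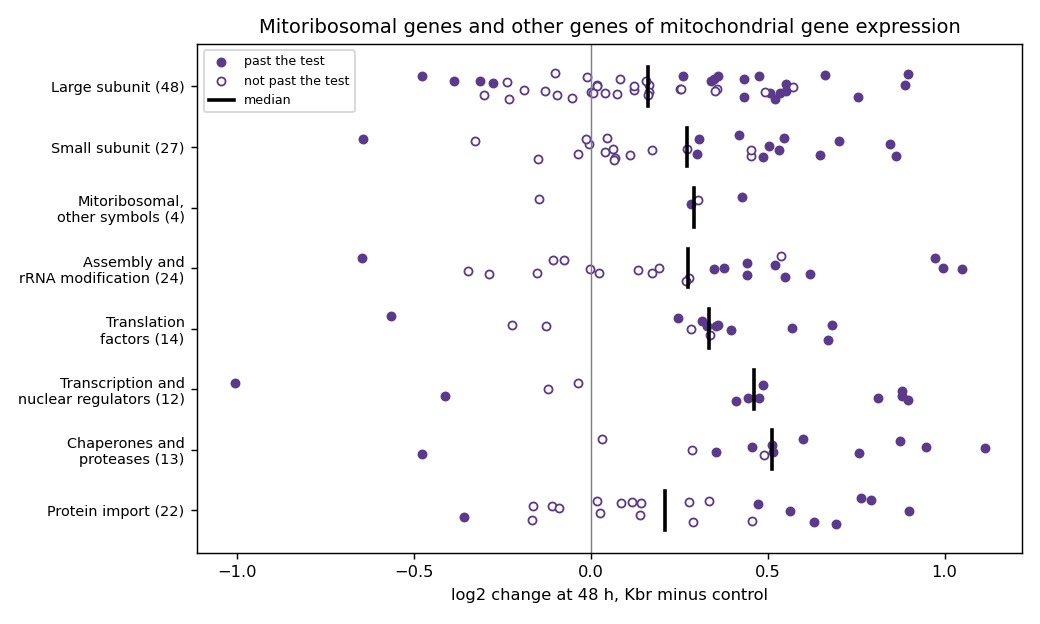
Change at 48 h, Kbr minus control (log2, horizontal axis), for each gene of the 2 subunits and of 6 further lists, with the number of genes tested in brackets. Filled circles passed the test and vertical bars are medians; vertical scatter within a row has no meaning. Every median is above 0, from 0.16 in the large subunit to 0.51 in chaperones and proteases.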

How the data were processed

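Gene expression was measured in 12 arrays of HK-2 cells. The values are log2 expression values deposited by the authors, for which the submitters' processing notes name GCRMA; its version is not given in the sources used here. GCRMA pulls weak probe sets to a floor and brings arrays to a common distribution, so a shift of all genes cannot be seen, and the number of arrays limits the precision. The table has 54675 probe sets, of which 41091 carried 1 symbol. All members matched a gene of GRCh38.p14 in RefSeq by gene identifier. Group means were fitted with limma 3.58.1 (lmFit, eBayes) in R 4.3.3, and promoter letters were counted in Python 3.11.15. The fit was tested on simulated data. For a single value, an exact permutation test of 3 against 3 arrays cannot go below p = 0.1, so none was used. The members and lists were chosen with earlier results of these data known.

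Same-numbered arrays of different groups deviated together: the 18 correlations of their deviations from group means lay between 0.28 and 0.70, and all 12 arrays correlated best with their own number. The labels call the replicates biological without saying what a number shares.

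Named members were the 8 largest rises and falls past the test at 48 h, up to 4 in each direction in the other comparisons, and the 5 highest and 5 lowest by mean. In the other lists up to 3 genes of smallest p at each time were named, and all genes with other mitoribosomal symbols. Genes and examples outside this rule were chosen after their values were seen. Alternatives were the replicate block, no filter or a floor of 6, repeated quantile normalization, median centring, the mean of all probe sets, a fit of only the compared groups, robust variance with an intensity trend, each array left out, and MRPS18A and MRPS30 counted with the large subunit.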

Additional observations from a re-analysis of the deposited data

How the results depend on the processing

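No called change of a named member reversed. Calls of named members were lost for 4 with only the groups compared, 3 without the filter, 3 with the mean of all probe sets and 1 with median centring, and gained for 8 with the replicate block and 1 with an intensity trend. With only the groups compared, 16 members rose and 2 fell at 48 h (9 and 1 of the large subunit, 7 risers of the small subunit), and 0 passed the test downward in either time course. The replicate block, which the array numbers support, gave 16 rises at 24 h, 8 falls at 48 h (2 of the small subunit), 6 higher and 1 lower for the difference between times, 1 rise and 27 falls in the control and 5 rises and 26 falls in the Kbr time course. Without the filter 3 members fell at 48 h, 2 of the large subunit, and 2 in the control time course. With the mean of all probe sets 2 members rose at 24 h, 2 small subunit genes fell at 48 h, 2 members fell in the control and 1 rose in the Kbr time course. The same setting gave small subunit medians of 0.21 at 48 h, -0.10 in the control time course and 0.0023 in the Kbr time course, where the sign reversed. An intensity trend with robust variance gave 2 rises at 24 h, 5 falls in the control and 1 rise in the Kbr time course. A floor of 6 and repeated quantile normalization each gave 2 rises at 24 h, and the latter a small subunit median of 0.21 at 48 h; with MRPS18A and MRPS30 in the large subunit that median was 0.17. The causes were not tested. Centring each array on its median left the 22 counts and medians within 1.5 times the count or 1 SD, and no scaling moved the median of all genes by over 0.1.

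With 1 array left out, the counts of risers and of fallers at 48 h ranged from 17 to 27 and from 2 to 8 (large subunit 11 to 17 and 1 to 7, small subunit risers 6 to 10). Rises at 24 h ranged from 0 to 2, members with a lower effect at 48 h from 0 to 2, falls in the control time course from 0 to 4, and rises and falls in the Kbr time course from 0 to 1 and from 0 to 16. The large subunit median ranged from -0.25 to -0.12 in the Kbr time course; the small subunit median ranged from -0.18 to -0.083 in the control time course and from 0.19 to 0.33 at 48 h.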

Other observations

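Mitoribosomal genes often share a start region with another gene. Of 67 members with a promoter window, 18 (26.9%) had a protein-coding gene that starts within 1000 bases on the other strand and points away. The share was 10.3% of all protein-coding promoters, those of genes below the filter included. In 1 such pair both genes are members: MRPL46 and MRPS11 lie head to head with starts 320 bases apart. MRPL46 measured 7.73, 7.90 and 7.73 in control and 8.09, 8.22 and 8.06 in Kbr arrays at 48 h and rose by 0.34 (SE 0.10, limma adjusted p = 0.0149). MRPS11 measured 9.35, 9.55 and 9.64 in control and 9.44, 9.63 and 9.45 in Kbr arrays, a change of -0.01 (SE 0.13, limma adjusted p = 0.973). The difference between the 2 genes was not tested.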
